A study of Mus musculus with 62 samples.

Results

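The genes described here are 9 genes of the presynaptic release machinery: the 3 Munc13 genes Unc13a, Unc13b and Unc13c, the RIM genes Rims1 and Rims2, and Syt1, Cplx1, Cplx2 and Snap25. They were taken by symbol from a table of 56415 genes. All 9 were found and all 9 passed the low-count filter in every comparison. Poly(A) RNA was sequenced from 5 brain regions of 16 male C57BL/6J mice aged 8 to 10 weeks. These were the cortex (CTX), the dorsal and the ventral part of the hippocampus (dHPC and vHPC) and the dorsal and the ventral part of the striatum (DS and VS). The mice received 1 intraperitoneal injection (acute) or 10 daily injections (chronic) of ethanol at 2 g/kg or of saline. Brains were taken 4 h after the final injection. The labels name no transgene and no other drug, and the 20 groups, formed by region, exposure and treatment, held 3 or 4 mice each, so p-values measure the spread between mice.

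Synaptic vesicles fuse when SNARE proteins on the vesicle and on the plasma membrane zip together. Munc13 proteins prepare, or prime, the vesicles for this step by opening syntaxin and helping the SNARE complex assemble, RIM proteins hold Munc13 and calcium channels at the active zone, synaptotagmin-1 senses calcium, and complexins bind the assembled SNAREs and hold or promote fusion. The C1 domain of Munc13-1, which binds diacylglycerol, has been described as a site that ethanol can bind, and the release machinery as a whole is a known target of alcohol research. In the forebrain Munc13-1 is the main priming factor of glutamatergic synapses, and Munc13-3 is best known from the cerebellum.

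Gene counts per library ran from 43173748 to 61873358 in CTX and from 44391219 to 71164766 in dHPC. They ran from 11421520 to 16574721 in vHPC, from 9689502 to 46564992 in DS and from 10142093 to 20428676 in VS. CTX and dHPC libraries were made with a non-directional kit, and vHPC, DS and VS libraries with a directional kit on another sequencer, so levels compared between these sets carry that difference. Unc13c had between 122 and 11649 counts in a library, Unc13b between 143 and 4240, and Snap25, the most deeply counted member, between 11593 and 192157. The DS chronic saline library of mouse 2 was left out of every main result, since it held 0 counts on chromosomes 7, 8, 9, X, Y and MT, which carry Unc13a and Unc13c.

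The labelled tissues were checked against markers. The summed level of 9 pallial excitatory neuron markers was 483 to 601 RPKM (counts scaled by exon length and library size, all libraries on one scale) in CTX and 39.1 to 229 RPKM in DS and VS. The summed level of 12 striatal projection neuron markers was 1534 to 3084 RPKM in DS, 1069 to 2321 RPKM in VS and 98.2 to 144 RPKM in CTX. Several libraries stood apart from their group. The dHPC chronic saline library of mouse 5 held 912 RPKM of striatal markers, against 60.5 to 306 RPKM in the other dHPC libraries. The vHPC libraries of acute ethanol mouse 4 and chronic ethanol mouse 5 held 445 and 517 RPKM of striatal markers, and that of acute saline mouse 2 held 123 RPKM of 6 thalamic markers, against 7.52 to 30.3 RPKM in the other vHPC libraries. The VS chronic saline library of mouse 5 held 48.8 RPKM of pallial markers, against 150 and 220 RPKM in the other libraries of its group.

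In GRCm39, Unc13a (ENSMUSG00000034799) lies on the minus strand of chromosome 8 (72077061 to 72124401), Unc13b (ENSMUSG00000028456) on the plus strand of chromosome 4 (43058953 to 43264871) and Unc13c (ENSMUSG00000062151) on the minus strand of chromosome 9 (73386704 to 73876248). Rims1 (ENSMUSG00000041670) lies on the minus strand of chromosome 1 (22356475 to 22844805) and Snap25 (ENSMUSG00000027273) on the plus strand of chromosome 2 (136555373 to 136624348). Of the exon bases of Unc13a, 16.7% are shared with Colgalt1 on the other strand. In CTX and dHPC, where the kit did not mark strand, reads of this stretch cannot be assigned to either gene. All libraries were counted for 1 orientation, so for these 2 regions reads of the other orientation were left uncounted, and the levels there rest on the rest of the reads. The uncounted share was not measured. The other members share at most 3.01% of their exon bases with a gene on the other strand.

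The promoters of the 3 Munc13 genes and of Rims1 are shown because the Munc13 genes differed in regional level, and because Unc13b and Rims1 fell and Unc13c rose together in one comparison below. Each runs from 250 bases before to 50 bases after the RefSeq start of the gene, on the strand of the gene. RefSeq gave them on GRCm38.p6, and each matched GRCm39 exactly once, at chr8:72124352-72124651, chr4:43058703-43059002, chr9:73876270-73876569 and chr1:22845190-22845489. Capitals mark the GC box GGGCGG or its reverse complement CCGCCC, the sequence bound by Sp1 family factors.
Unc13a: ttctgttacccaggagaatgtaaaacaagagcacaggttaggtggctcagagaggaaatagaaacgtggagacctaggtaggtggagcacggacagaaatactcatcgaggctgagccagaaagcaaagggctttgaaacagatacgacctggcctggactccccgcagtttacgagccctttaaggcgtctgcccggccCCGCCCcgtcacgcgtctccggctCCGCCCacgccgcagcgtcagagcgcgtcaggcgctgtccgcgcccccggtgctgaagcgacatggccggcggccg
Unc13b: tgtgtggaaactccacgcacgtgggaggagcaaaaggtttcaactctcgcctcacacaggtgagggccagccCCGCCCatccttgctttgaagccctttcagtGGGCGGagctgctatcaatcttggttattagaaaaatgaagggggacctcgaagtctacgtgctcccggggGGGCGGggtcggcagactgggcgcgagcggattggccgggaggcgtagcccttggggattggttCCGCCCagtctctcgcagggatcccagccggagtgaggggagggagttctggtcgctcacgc
Unc13c: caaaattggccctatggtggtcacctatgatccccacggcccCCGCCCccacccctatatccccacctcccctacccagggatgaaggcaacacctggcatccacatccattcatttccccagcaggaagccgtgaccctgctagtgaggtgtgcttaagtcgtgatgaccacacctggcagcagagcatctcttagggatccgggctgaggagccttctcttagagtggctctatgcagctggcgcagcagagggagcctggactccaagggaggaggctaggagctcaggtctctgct
Rims1: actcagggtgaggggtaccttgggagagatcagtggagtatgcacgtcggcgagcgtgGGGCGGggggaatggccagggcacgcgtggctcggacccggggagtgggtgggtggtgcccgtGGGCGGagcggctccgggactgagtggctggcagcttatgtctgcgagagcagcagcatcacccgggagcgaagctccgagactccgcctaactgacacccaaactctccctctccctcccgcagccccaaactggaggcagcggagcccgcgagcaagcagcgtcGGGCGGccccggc
The GC box occurred 4 times in the Unc13b promoter, 3 times in that of Rims1, 2 times in that of Unc13a and once, 208 bases before the start, in that of Unc13c. It occurred at least once in 35.7% of 32851 promoters of the same length. The Unc13c promoter held 6 CpG pairs, against 27, 20 and 26 in those of Unc13a, Unc13b and Rims1 and a median of 7 over all promoters. None of these 4 held TATAAA on either strand, a motif found in 13.6% of all promoters. TGACG, a short form of the cyclic AMP response element, was found on either strand 3 times in the Unc13a promoter and in 20.8% of all promoters.

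In saline mice the most abundant Munc13 gene was Unc13a in CTX and both hippocampal regions, while Unc13c reached about the level of Unc13a in the striatum. Unc13a was at 42.6 ± 1.5 RPKM (SD, n = 6) in CTX, 28.3 ± 1.37 in dHPC, 31.9 ± 6.5 in vHPC, 22.2 ± 2.0 in VS (n = 6 each) and 20.8 ± 1.71 in DS (n = 5). The values of DS and VS overlapped, and so did those of dHPC and vHPC. Unc13b, which encodes Munc13-2, was the lowest of the 9 genes in DS and VS, and its range overlapped with that of Unc13c in the other 3 regions. Unc13b was at 3.09 ± 0.319 RPKM in CTX, 2.09 ± 0.33 in vHPC, 1.87 ± 0.19 in dHPC, 1.23 ± 0.386 in VS and 1.14 ± 0.177 in DS. Unc13c, which encodes Munc13-3, ran the other way, with 22.3 ± 8.27 RPKM in VS and 17.7 ± 4.68 in DS. It was at 3.98 ± 4.52 in vHPC, 3.48 ± 1.98 in dHPC and 3.0 ± 0.215 in CTX.

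Of the summed RPKM of the 3 Munc13 genes, Unc13c made up 44.1% ± 5.58 (SD, n = 5) in DS and 47.5% ± 10.1 (n = 6) in VS, against 6.17% ± 0.496 (n = 6) in CTX. The highest hippocampal values of Unc13c were in libraries that stood apart by their markers. In vHPC its median was 2.18 RPKM and its highest value, 13.1 RPKM, was that of acute saline mouse 2. In dHPC its median was 3.03 RPKM and its highest value, 7.41 RPKM, was that of chronic saline mouse 5.

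**Figure D1:**
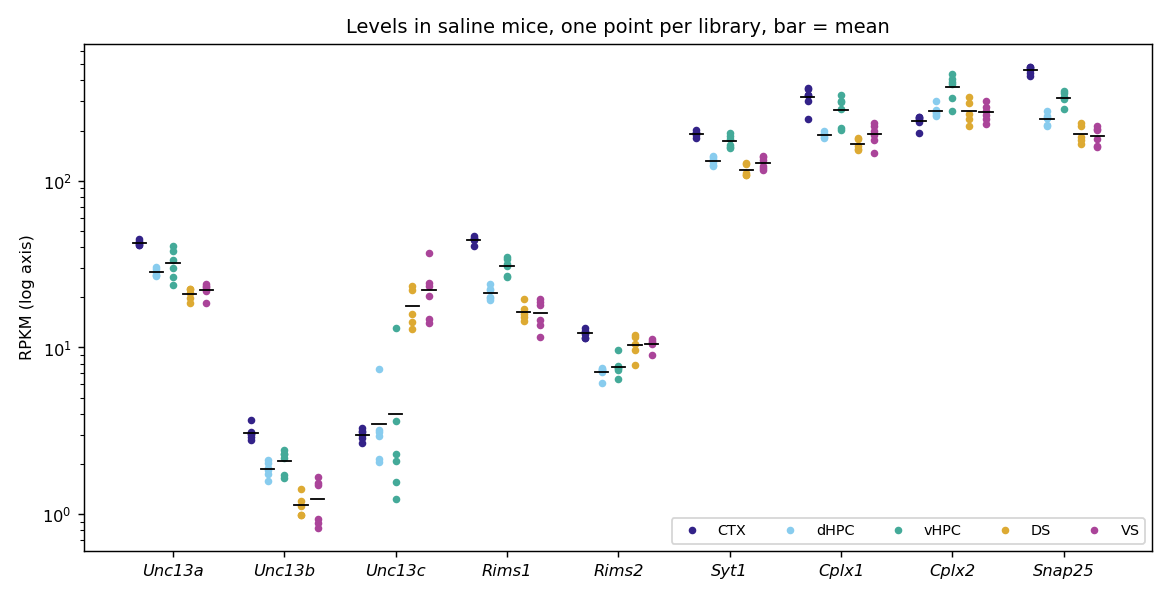
Level of each member in the saline libraries of the 5 regions, in RPKM on a log axis, with a point per library and a bar at the mean. Unc13c lies at 12.9 RPKM or more in every DS and VS library, and only 1 of 18 libraries of the other regions, at 13.1 RPKM, reaches that level.

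Rims1, which encodes a scaffold of the active zone, had its highest mean in CTX and its lowest means in DS and VS, as Unc13a and Unc13b did. It was at 44.4 ± 1.97 RPKM (SD, n = 6) in CTX, 30.8 ± 3.42 in vHPC, 21.3 ± 1.92 in dHPC, 16.4 ± 1.97 in DS (n = 5) and 16.0 ± 3.22 in VS. Rims2 was at 12.1 ± 0.678 RPKM in CTX, 10.5 ± 0.748 in VS, 10.3 ± 1.64 in DS, 7.69 ± 1.06 in vHPC and 7.13 ± 0.497 in dHPC, so the RPKM of Rims1 was 3.67 ± 0.258 times that of Rims2 in CTX and 1.53 ± 0.292 times in VS. Snap25, the SNARE of the plasma membrane, was at 461 ± 21.9 RPKM in CTX and at 187 ± 23.8 in VS. Syt1, the calcium sensor of fast release, was at 191 ± 6.51 RPKM in CTX and at 116 ± 9.34 in DS. The means of the 2 complexins had another order in CTX than in vHPC, but libraries varied. Cplx1 was at 318 ± 46.2 RPKM and Cplx2 at 228 ± 18.3 in CTX, whereas in vHPC Cplx1 was at 267 ± 51.2 and Cplx2 at 365 ± 65.0. The RPKM of Cplx1 over that of Cplx2 was 0.977 to 1.87 in the CTX libraries and 0.511 to 1.24 in the vHPC libraries, which overlapped and were made with different kits. Within the kit of CTX, the dHPC libraries had ratios of 0.633 to 0.804, all below those of CTX.

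Regions were tested against each other within a kit, in saline mice, with edgeR's quasi-likelihood test and Benjamini-Hochberg adjusted p-values over all genes (FDR below 0.1 was called). Fewer cells of a type and less RNA per cell cannot be told apart in such tissue. Between dHPC and CTX, 28.9% of all genes were called higher and 26.4% lower in dHPC, and of the members Cplx2 was higher and 7 were lower. The largest difference was that of Rims1, which was lower in dHPC by a log2 fold change of -1.04 ± 0.05 (SE, n = 6 each, edgeR FDR 8.35e-10). Unc13a was lower by -0.57 ± 0.04 and Unc13b by -0.70 ± 0.07. Unc13c differed by 0.23 ± 0.25 (FDR 0.487). Without the dHPC chronic saline library of mouse 5, Unc13c was lower in dHPC, by -0.19 ± 0.08 (edgeR FDR 0.0614), and in the ethanol libraries by -0.43 ± 0.14 (edgeR FDR 0.0164). The other 8 members were called in the same directions without that library, with Rims1 at -1.02, Unc13a at -0.56 and Unc13b at -0.65. In that fit 14764 of 27064 genes were called in all.

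Between DS and vHPC, 19.9% of genes were higher and 21.6% lower in DS, and all 9 members were called, with Unc13c and Rims2 higher in DS and the other 7 lower. DESeq2 called 8 of them, and 8746 of 20669 genes in all, and gave no adjusted p for Unc13c. Unc13c was higher by 2.29 ± 0.41 on the log2 scale (SE, 5 against 6 libraries, edgeR FDR 6.05e-04). The 2 groups overlapped only through the vHPC library with high thalamic markers, and without it Unc13c was higher by 2.94 ± 0.19 (edgeR FDR 1.03e-07). Rims1 was lower by -0.92 ± 0.09, Unc13b by -0.84 ± 0.09, Snap25 by -0.74 ± 0.09 and Unc13a by -0.58 ± 0.12, and without that library by -0.98, -0.87, -0.75 and -0.66. Between VS and vHPC, 20.2% of genes were higher and 18.9% lower in VS, and the same members were called in the same directions, with Unc13c higher by 2.72 ± 0.51 (edgeR FDR 8.44e-04) and Rims2 by 0.46 ± 0.08. Without the same vHPC library Unc13c was higher by 3.37 ± 0.31, and without VS chronic saline mouse 5 by 2.47 ± 0.45. Rims2 was then higher by 0.52 and 0.43. All 9 members were called in the same directions against vHPC when either library was left out. Without the vHPC library, 8777 of 20373 genes were called between DS and vHPC and 8146 of 20729 between VS and vHPC. Without the VS library, 7943 of 20740 were called between VS and vHPC. These comparisons share the vHPC libraries. Between VS and DS, 4.34% of genes were higher and 5.54% lower in VS, and edgeR called 0 of 9 members, with 2 at an unadjusted p below 0.05 (Syt1 and Cplx1), against 21.2% of all genes, and 0 called by DESeq2, against 13% of all genes.

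After acute ethanol, 4 of the 9 members differed from saline in the DS. Of all genes tested there, 5.15% were called, 2.05% higher and 3.1% lower after ethanol. Of the members, Unc13b, Rims1 and Snap25 fell and Unc13c rose. DESeq2 called 6.4% of all genes and 3 members, and 15.5% of all genes and 5 members had an unadjusted p below 0.05. The saline and ethanol values did not overlap for 21.4% of all genes and for 6 of the 9 members, these 4, Unc13a and Syt1. Unc13b was at 22.2, 21.7 and 24.9 CPM (counts scaled by library size within the region) in the 3 saline libraries and at 17.4, 15.6 and 15.6 CPM in the 3 ethanol libraries. The groups did not overlap, and the log2 fold change was -0.51 ± 0.11 (SE, n = 3 each, edgeR FDR 0.0286). Rims1 was at 126, 134 and 154 CPM after saline and at 87.1, 105 and 89.2 CPM after ethanol. It showed the largest fall of the 9, by -0.56 ± 0.09 (edgeR FDR 0.00368), again with no overlap.

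Snap25 was at 1179, 1458 and 1403 CPM after saline and at 1096, 1114 and 1097 CPM after ethanol. The lowest saline library lay close to the ethanol libraries, and Snap25 fell by -0.29 ± 0.07 on the log2 scale (edgeR FDR 0.0467). Unc13c was at 124, 199 and 189 CPM after saline and at 282, 202 and 253 CPM after ethanol. It rose by 0.52 ± 0.15 (edgeR FDR 0.086), and the lowest ethanol library lay just above the highest saline library. The other 5 members were not called. Syt1 was at 894, 1018 and 1036 CPM after saline and at 876, 876 and 890 CPM after ethanol, a log2 difference of -0.16 ± 0.06 (edgeR FDR 0.232). Without saline mouse 2 Syt1 was called (-0.22 ± 0.05, edgeR FDR 0.063), as were 662 of 20335 genes in all. Unc13a differed by -0.10 ± 0.06, Rims2 by -0.09 ± 0.08, Cplx1 by -0.08 ± 0.06 and Cplx2 by 0.15 ± 0.08.

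Rims1 was called whichever of the 6 libraries was left out, and with DESeq2, and with all 4 DS groups in one fit. That joint fit did not call Unc13b (edgeR FDR 0.26), Snap25 (FDR 0.271) or Unc13c (FDR 0.207), and it called 1.34% of all genes. Unc13b was not called without saline mouse 6 (edgeR FDR 0.112) or ethanol mouse 5 (FDR 0.131). Snap25 was called without saline mouse 2, but not without any of the other 5 libraries, each left out in turn (edgeR FDR 0.12 to 0.163). Unc13c was not called without saline mouse 2 (FDR 0.204), saline mouse 6 (FDR 0.12), ethanol mouse 3 (FDR 0.246) or ethanol mouse 5 (FDR 0.203), nor with DESeq2 (adjusted p 0.233). Without saline mouse 2 its log2 difference was 0.34 ± 0.11, and without the other 3 it was 0.60, 0.42 and 0.50. Where leaving out a library lost the call, the difference of Unc13b was -0.44 and -0.48 and that of Snap25 between -0.23 and -0.30. Leaving out 1 library left between 581 and 1088 genes called, against 1056 with all 6. Ethanol mouse 5 had the deepest library of the DS, with 46564992 counts.

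**Figure D2:**
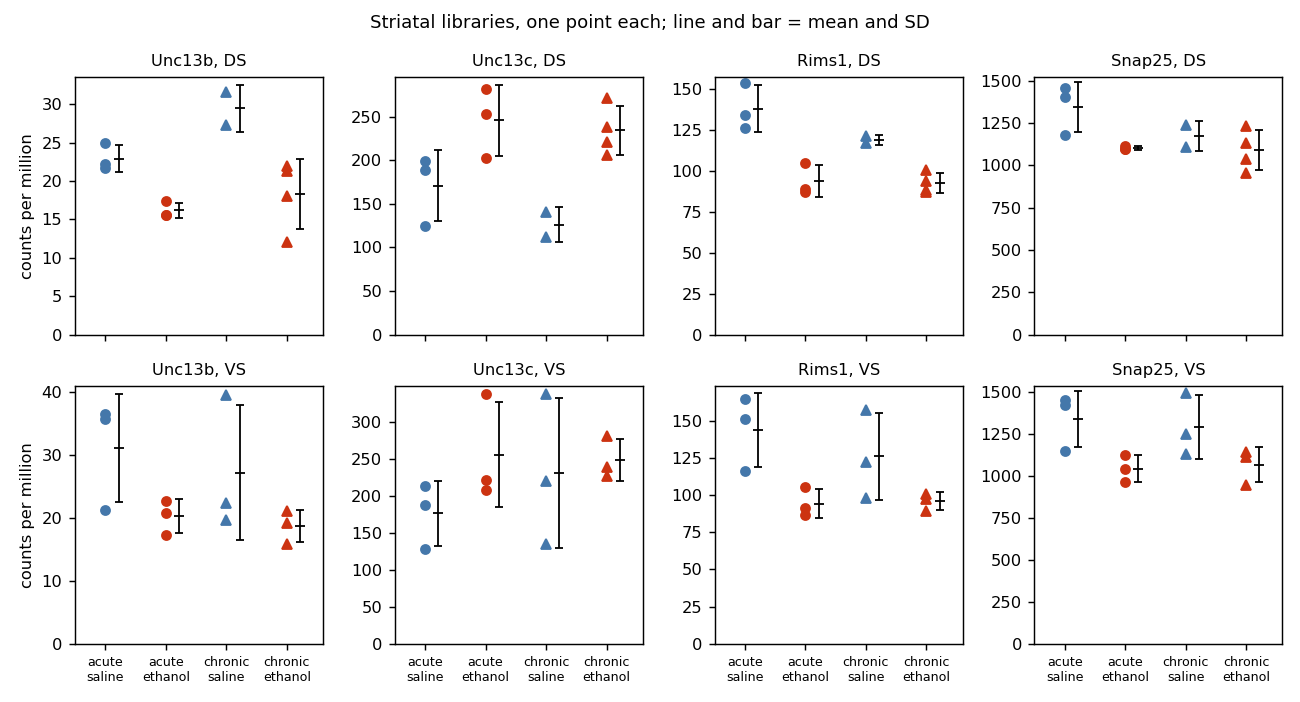
Level in CPM of Unc13b, Unc13c, Rims1 and Snap25 in each DS (top) and VS (bottom) library, for acute (circles) and chronic (triangles) saline (blue) and ethanol (red) mice, with the group mean and SD beside the points. Acute DS saline and ethanol libraries do not overlap for any of the 4 genes (nor for 21.4% of all genes), while in the VS the saline libraries are widely spread and in part reach the ethanol values.

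Markers of pallial excitatory neurons moved with these members. All 9 of 9 pallial markers fell in the DS after acute ethanol, with a median log2 fold change of -3.19. Their summed level was 150, 158 and 180 RPKM in the saline libraries and 50.2, 68.9 and 45.2 RPKM in the ethanol libraries. The most abundant of them, Slc17a7 (the vesicular glutamate transporter VGLUT1), was at 51.3, 57.5 and 68.2 RPKM after saline and at 3.41, 14.6 and 2.12 RPKM after ethanol. Of 12 striatal projection neuron markers, 9 rose and none fell, and their median was 0.30. Of the other marker lists, 3 of 8 pan-neuronal markers fell (Stmn2 by -0.70 ± 0.09), 3 of 8 interneuron markers fell and 1 rose, 1 of 6 astrocyte markers fell, 2 of 6 choroid plexus markers rose and 1 of 5 tested dentate granule neuron markers rose. All 5 endothelial markers had lower means, with a median of -0.11 and 0 called. The summed levels of the endothelial and pan-neuronal lists were lower in every ethanol library. The part of these markers in the change of the members was not tested.

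Across the saline libraries of DS and VS (n = 11, with some mice giving both regions), the log2 RPKM of Rims1 followed the log2 summed pallial level with Pearson's r = 0.837 and Spearman's rho = 0.855. Without the 2 libraries farthest from the median marker level, r was 0.675. Across the 13 ethanol libraries, r was 0.857, rho 0.868 and r without the 2 farthest 0.812. For Unc13b, r was 0.756 (rho 0.909, 0.834 without the 2 farthest) across saline libraries but 0.0356 (rho -0.0275, -0.246 without the 2 farthest) across ethanol libraries. For Snap25, r was 0.607 (rho 0.618, 0.476 without the 2 farthest) and 0.641 (rho 0.588, 0.514 without the 2 farthest). For Unc13c the relation in saline mice rested on the 2 farthest libraries, with r = -0.627, rho = -0.236 and r = 0.105 without them. Across the ethanol libraries r was -0.366, rho -0.407 and r without the 2 farthest -0.341. The VS chronic saline library of mouse 5, with few pallial markers, lay inside the range of the VS ethanol libraries for Unc13b, Rims1 and Snap25, and at its upper end for Unc13c (36.8 RPKM, against 36.6 RPKM in the highest ethanol library).

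**Figure D3:**
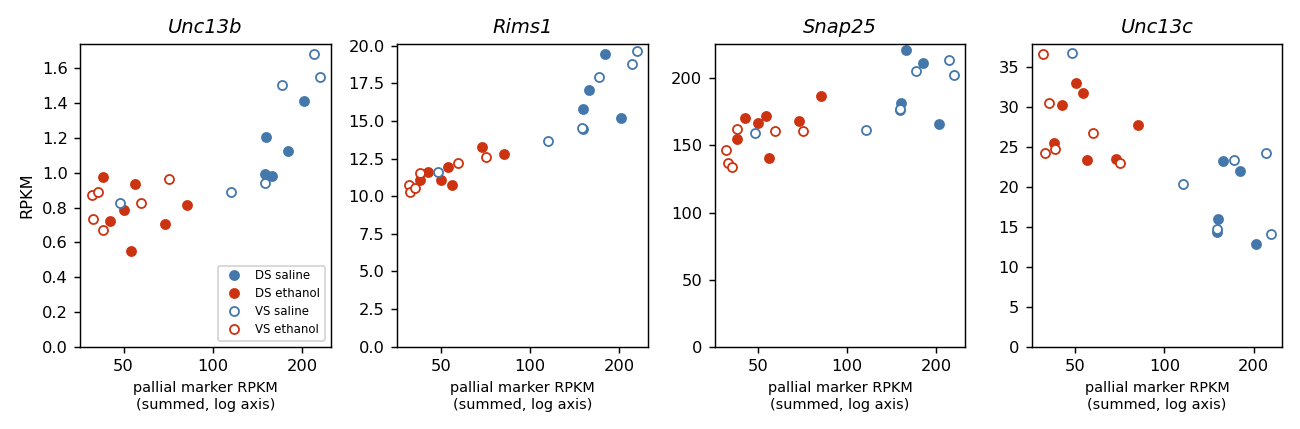
RPKM of Unc13b, Rims1, Snap25 and Unc13c against the summed RPKM of 9 pallial excitatory neuron markers (log axis) in the DS (filled) and VS (open) libraries of saline (blue) and ethanol (red) mice. The ethanol libraries lie between 39.1 and 81.8 RPKM of markers, and the saline libraries at 115 RPKM or more except for 1 VS library at 48.8 RPKM, which plots beside the ethanol libraries in each panel.

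In the 3 other striatal comparisons the values of Unc13b, Rims1, Snap25 and Unc13c had the same signs, but edgeR called 0 of 9 members in each. In the VS after acute ethanol, 0.0399% of all genes were called. Of the members 5 of 9 had an unadjusted p below 0.05, against 7.32% of all genes, and DESeq2 called 2 (Rims1 and Syt1), against 0.889% of all genes. Groups did not overlap for 4 members and for 12.3% of all genes. Rims1 was at 116, 151 and 165 CPM after saline and at 105, 91.1 and 86.3 CPM after ethanol, with no overlap and a log2 difference of -0.61 ± 0.14 (SE, n = 3 each, edgeR FDR 0.259). Unc13b was at 21.2, 35.6 and 36.4 CPM and at 22.6, 20.8 and 17.3 CPM, where the lowest saline library fell within the ethanol range, and it differed by -0.62 ± 0.20 (edgeR FDR 0.502). Syt1 differed by -0.36 ± 0.10 and Snap25 by -0.36 ± 0.12, neither with overlap. Without saline mouse 2, Unc13b (edgeR FDR 0.089) and Rims1 (FDR 0.0622) were called, and without ethanol mouse 2, Rims1 was (FDR 0.0726). The share of all genes called rose as well, to 0.401% and 1.48%. All 9 pallial markers were lower after ethanol here too, with a median of -2.76, of which 1 (Neurod2) was called. All of the tested dentate granule neuron (5), astrocyte (6) and oligodendrocyte and myelin markers (8) had higher means, with medians of 0.35, 0.13 and 0.36 and 0 called. The summed dentate level was higher in every ethanol library. The median dentate marker, each as a percent of its saline dHPC level, overlapped between groups. It was at 6.60% to 15.2% after saline and at 8.03% to 11.4% after ethanol. The part of any of these markers was not tested.

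In the DS after chronic ethanol, 0% of all genes were called. Of the members 3 of 9 had an unadjusted p below 0.05, against 7.53% of all genes, and DESeq2 called 1 (Unc13c), against 0.776% of all genes. Unc13c was at 112 and 140 CPM in the 2 saline libraries kept and at 221, 238, 205 and 271 CPM in the 4 ethanol libraries. No value overlapped, which held for 17.3% of all genes and 3 members, and Unc13c differed by 0.89 ± 0.14 on the log2 scale (edgeR FDR 0.172). Unc13b was at 31.6 and 27.4 CPM after saline and at 21.9, 18.0, 21.3 and 12.1 CPM after ethanol (-0.69 ± 0.22, edgeR FDR 0.522). Rims1 was at 121 and 117 CPM after saline and at 88.5, 101, 87.2 and 93.9 CPM after ethanol (-0.37 ± 0.09, edgeR FDR 0.404). Snap25 differed by -0.11 ± 0.12. The summed pallial level was 203 and 151 RPKM after saline and 42.6, 81.8, 54.7 and 53.1 RPKM after ethanol. Of the pallial markers 8 of 9 had lower means, with a median of -2.33. Other markers differed in the same libraries, with 0 called. The summed level of 8 interneuron markers was 370 and 335 RPKM after saline and 437, 452, 414 and 444 RPKM after ethanol. Of the 8, 6 had higher means (median 0.32). This list includes genes of GABAergic neurons in general, so its sum does not mark interneurons alone. The summed levels of the dentate granule neuron and microglia lists were also higher in every ethanol library. The median dentate marker, each as a percent of its saline dHPC level, was not. It was at 15.9% to 19.3% after saline and at 9.42% to 21.9% after ethanol. All 6 choroid plexus markers had lower means after ethanol, with a median of -1.55, but their summed level varied within both groups, from 1479 to 5546 RPKM after saline and from 5.73 to 2368 RPKM after ethanol. All 8 oligodendrocyte and myelin markers had lower means (median -0.32), and all 12 striatal projection neuron markers (median 0.43) and all 6 thalamic markers (median 0.74) had higher means. The part of any of these was not tested.

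In the VS after chronic ethanol, 0% of all genes were called. Of the members 2 of 9 had an unadjusted p below 0.05, against 9.95% of all genes, and DESeq2 called 0, against 1.79% of all genes. Groups did not overlap for 1 member, Syt1, and for 16.1% of all genes. Rims1 was at 157, 98.3 and 122 CPM after saline and at 97.1, 101 and 89.3 CPM after ethanol (-0.40 ± 0.15, edgeR FDR 0.443). Snap25 was at 1498, 1129 and 1252 CPM after saline and at 1146, 1115 and 947 CPM after ethanol (-0.28 ± 0.12, edgeR FDR 0.499), where only the lowest saline library, that of mouse 5, reached the ethanol range. Unc13b was at 39.5, 19.7 and 22.3 CPM after saline and at 15.9, 19.1 and 21.1 CPM after ethanol (-0.54 ± 0.25, edgeR FDR 0.515), again with only mouse 5 in the ethanol range. The saline library at 98.3 CPM of Rims1 was also that of mouse 5, and without it Rims1 was called (-0.55 ± 0.11, edgeR FDR 0.0453). Unc13c was at 220, 338 and 135 CPM after saline, the highest again in mouse 5, and at 226, 240 and 281 CPM after ethanol (0.11 ± 0.27). Without mouse 5 the log2 difference of Unc13c was 0.48 ± 0.18 (edgeR FDR 0.248), that of Snap25 -0.365 ± 0.105 (FDR 0.139) and that of Unc13b -0.73 ± 0.22 (FDR 0.157), and 3.08% of all genes, 615 of 19948, were called. All 9 pallial markers had lower means after ethanol, with a median log2 fold change of -3.16 and 0 of them called. Their summed level was 220, 48.8 and 150 RPKM after saline, the lowest in mouse 5, and 42.7, 57.3 and 40.9 RPKM after ethanol. The 4 tested choroid plexus markers had lower means too, with a median of -3.76 and 0 called. Their summed level was 8.80, 10.9 and 2242 RPKM after saline and 7.21, 9.57 and 9.13 RPKM after ethanol, so 1 saline library, that of mouse 6, was high. All 8 oligodendrocyte and myelin markers had lower means (median -0.40, 0 called). The summed level of the same interneuron list was higher in every ethanol library (534 to 609 RPKM, against 498 to 501 RPKM). The part of any of these markers in the values of the members was not tested.

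**Figure D4:**
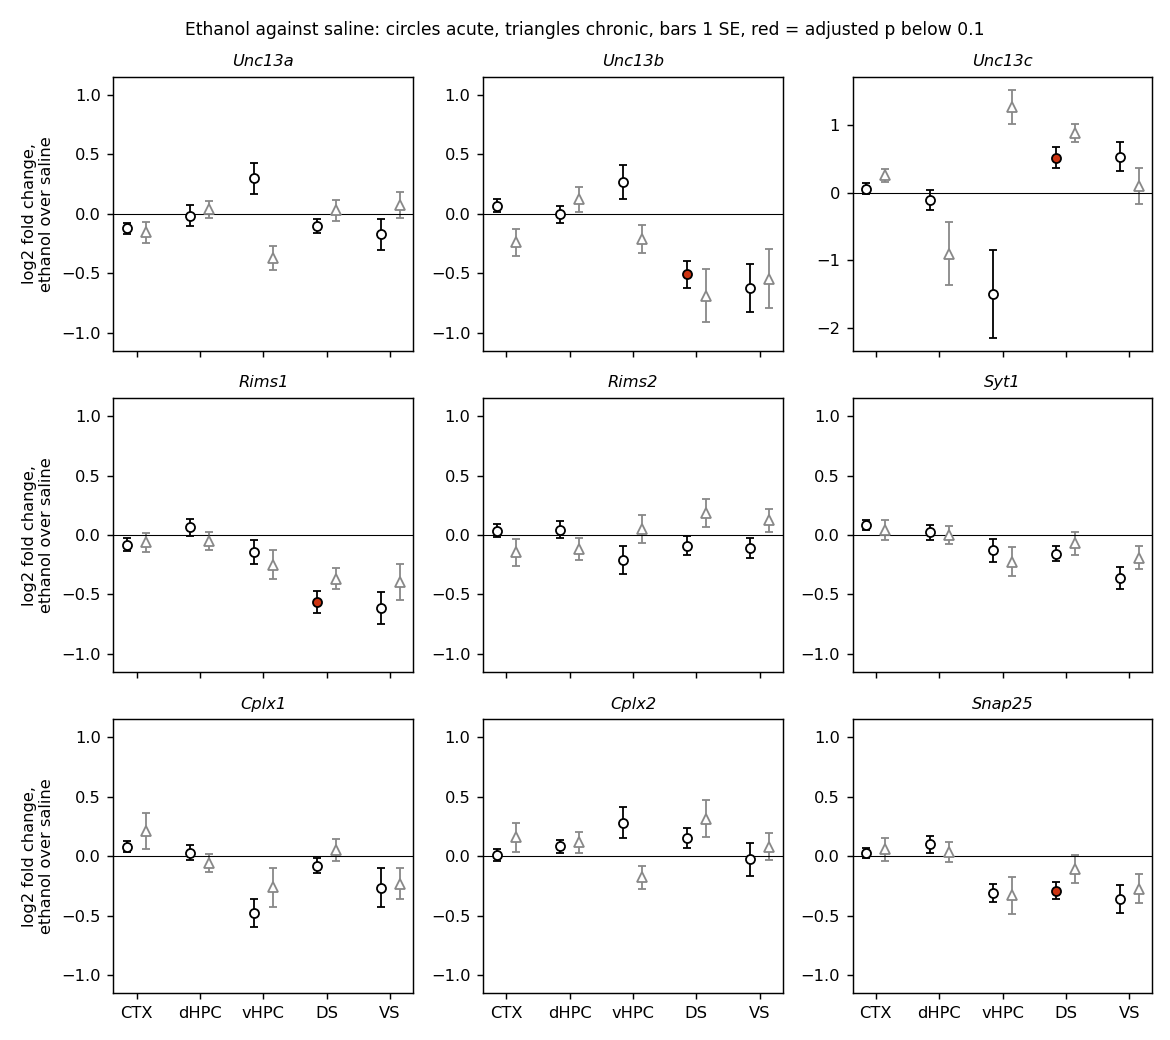
Log2 fold change of each member, ethanol over saline, in the 5 regions after acute (circles) and chronic (triangles) exposure, with bars of 1 SE. The Unc13c panel has its own scale. The filled red points are the 4 called values, all in the DS after acute ethanol, and the widest bars are those of Unc13c in vHPC after acute and in dHPC after chronic ethanol.

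The wider machinery was described with 5 lists. In the DS after acute ethanol, where 2.05% of all genes rose and 3.1% fell, 7 of 16 priming and docking factors fell and 2 rose. The median of the 16 log2 fold changes was -0.21, that of the 9 members was -0.10 and that of all genes tested was 0.00. Cadps2, which primes dense-core vesicles, fell by -1.47 ± 0.12 (edgeR FDR 1.00e-04), the calcium sensor Doc2a fell by -2.05 ± 0.23 (FDR 2.68e-04) and the Rab3 effector Rph3a fell by -0.48 ± 0.07 (FDR 0.00245). Of 15 active zone scaffold genes, 3 fell: Bsn (bassoon) by -0.39 ± 0.07, Rims4 by -0.58 ± 0.10 and Apba1 by -0.45 ± 0.09. Of 12 genes of the SNAREs and their recycling, 2 fell: the syntaxin Stx1a by -1.39 ± 0.15 (edgeR FDR 2.03e-04) and Napb by -0.22 ± 0.06. Of the 13 tested genes among the other synaptotagmins and complexins, Syt13 fell by -1.06 ± 0.10 and Syt17 by -2.04 ± 0.28. Of 13 synaptic vesicle proteins 5 fell, among them synaptophysin (Syp) by -0.53 ± 0.07 and Slc17a7 by -3.19 ± 0.50, and 1, Sv2c, rose by 0.54 ± 0.07. Slc17a7 is itself one of the 9 pallial markers that fell in these libraries, and the part of those markers in the calls of the lists was not tested.

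In the other ethanol comparisons the lists held few calls, and in all of them but CTX acute so did the genes as a whole. In CTX after acute ethanol 1.99% of all genes were called. Of the lists there, Stxbp6, which encodes the SNARE-binding protein amisyn, fell by -0.25 ± 0.06 and Rab27b rose by 0.29 ± 0.07, Rims3 fell by -0.25 ± 0.06 and Syt6 rose by 0.67 ± 0.13. No list gene was called in any of the other 8 ethanol comparisons. There edgeR called between 0% and 0.0555% of all genes, so calls in the lists could hardly be found. Of 8 oligodendrocyte and myelin markers, 6 rose in CTX after acute ethanol, with a median of 0.38, while 4 of 12 striatal markers fell. Of the other lists there, 2 of 9 pallial markers rose, 1 of 6 dentate granule neuron markers fell and 1 of 5 endothelial markers fell. The part of any of these was not tested.

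In CTX none of the 9 members was called by edgeR or DESeq2 in either paradigm, against 1.99% of genes called by edgeR after acute and 0% after chronic ethanol. DESeq2 called 3.69% and 0.608% of all genes. At an unadjusted p below 0.05 there was 1 member in each, against 12.5% and 10.4% of all genes, and groups did not overlap for 3 and 2 members, against 17.7% and 18% of all genes. After acute ethanol this was Unc13a, at 517, 521 and 505 CPM after saline and at 490, 461 and 467 CPM after ethanol, a log2 difference of -0.12 ± 0.04 with no overlap (SE, n = 3 each, edgeR FDR 0.257). After chronic ethanol it was Unc13c, at 26.5, 24.4 and 23.0 CPM after saline and at 27.7, 28.8 and 31.2 CPM after ethanol, a difference of 0.26 ± 0.09 (edgeR FDR 0.443). In these chronic libraries the summed pan-neuronal level was higher in every ethanol library (855 to 889 RPKM, against 708 to 843 RPKM). All 8 oligodendrocyte and myelin markers had higher means (median 0.37), with 0 called. The part of these markers was not tested.

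In dHPC, 0.042% of genes were called after acute and 0% after chronic ethanol, with 0 members called by edgeR or DESeq2, 0 at an unadjusted p below 0.05 and 0 whose groups did not overlap. Of all genes, DESeq2 called 1.07% after acute and 0.859% after chronic ethanol, 7.88% and 8.23% had an unadjusted p below 0.05, and 8.25% and 13.9% had groups that did not overlap. The largest difference there was that of Unc13c after chronic ethanol, at 19.2, 67.6 and 18.4 CPM after saline and at 23.4, 16.9 and 15.3 CPM after ethanol, which gave -0.91 ± 0.47 on the log2 scale (edgeR FDR 0.66). The value of 67.6 CPM was that of mouse 5, the library with high striatal markers, and the other saline values overlapped with those of ethanol. Without it the log2 difference was -0.02 ± 0.17 (edgeR FDR 0.996).

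In vHPC the members varied more, and Unc13c most. After acute ethanol 0% of genes were called by edgeR. Of the members 4 had an unadjusted p below 0.05, against 11.9% of all genes, and DESeq2 called 2, Cplx1 and Snap25, against 2.9% of all genes. Cplx1 was at 715, 587 and 652 CPM after saline and at 492, 512 and 399 CPM after ethanol (-0.48 ± 0.12, SE, n = 3 each, edgeR FDR 0.222). Snap25 was at 2147, 2099 and 2261 CPM after saline and at 1709, 1800 and 1730 CPM after ethanol (-0.31 ± 0.08, edgeR FDR 0.218). Neither overlapped between groups, which held for 2 of 9 members and 17.9% of all genes. Of the dentate granule neuron markers, 6 of 6 had higher means after ethanol in the same libraries, 0 of them called, with a median log2 fold change of 1.04. Their summed level was 57.7, 56.5 and 32.7 RPKM after saline and 101, 82.0 and 125 RPKM after ethanol, with Calb1 the most abundant. The summed level of 8 pan-neuronal markers was 687, 694 and 757 RPKM after saline and 629, 657 and 633 RPKM after ethanol, lower in every ethanol library, while 6 of the 8 had lower means and 0 were called. All 12 striatal projection neuron markers had higher means (median 0.80), with 0 called. Their summed level was 89.0 to 158 RPKM after saline and 71.2 to 445 RPKM after ethanol, the highest in mouse 4. All 8 oligodendrocyte and myelin markers had lower means (median -0.24), with 0 called. Their summed level was 447 to 1634 RPKM after saline and 592 to 1491 RPKM after ethanol. The summed endothelial level was lower in every ethanol library. The part of any of these was not tested. Without saline mouse 2 the difference of Cplx1 was -0.41 ± 0.12 (edgeR FDR 0.414) and that of Snap25 -0.32 ± 0.08 (FDR 0.351). Without ethanol mouse 4 they were -0.55 ± 0.13 (FDR 0.204) and -0.33 ± 0.09 (FDR 0.228). Unc13c was at 115, 32.0 and 20.0 CPM after saline and at 14.3, 34.5 and 9.96 CPM after ethanol, a log2 difference of -1.50 ± 0.66 (edgeR FDR 0.416). The summed thalamic marker level of the same libraries was 123, 28.4 and 19.0 RPKM after saline and 9.05, 30.3 and 7.52 RPKM after ethanol, in the same order as Unc13c within each group. Without saline mouse 2 the log2 difference of Unc13c was -0.41 ± 0.46 (edgeR FDR 0.836), and without ethanol mouse 4 it was -2.20 ± 0.71 (edgeR FDR 0.29).

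After chronic ethanol 0.0555% of genes were called in vHPC, with 0 members by edgeR, 2 members (Unc13a and Unc13c) by DESeq2 and the same 2 at an unadjusted p below 0.05. Of all genes, DESeq2 called 1.08%, 9.51% had an unadjusted p below 0.05, and 14.8% had groups that did not overlap, as 4 members did. Unc13c was at 10.9, 13.6 and 18.3 CPM after saline and at 32.4, 47.6 and 24.0 CPM after ethanol, higher in every ethanol library (1.28 ± 0.25 on the log2 scale, edgeR FDR 0.199). Unc13a was at 510, 420 and 476 CPM after saline and at 385, 342 and 360 CPM after ethanol (-0.37 ± 0.10, edgeR FDR 0.353). Striatal markers summed to 61.5, 131 and 71.2 RPKM after saline and to 84.6, 517 and 79.98 RPKM after ethanol, with the highest marker level in the library with the most Unc13c. Choroid plexus markers moved with the treatment as well: 4 of 6 rose, with a median log2 fold change of 4.11. All 8 oligodendrocyte and myelin markers had higher means after ethanol, with a median of 0.73 and 0 called, and their summed level was 636, 1041 and 604 RPKM after saline and 1055, 1736 and 917 RPKM after ethanol. All 6 dentate granule neuron markers had higher means (median 0.46), and all 6 astrocyte (median -0.08) and all 5 endothelial markers (median -0.40) lower means, with 0 called. The summed pallial level was 673, 701 and 789 RPKM after saline and 627, 462 and 517 RPKM after ethanol. The part of any of these in the values of the members was not tested. Without ethanol mouse 5, the library rich in striatal markers, Unc13c differed by 0.98 ± 0.21 on the log2 scale (edgeR FDR 0.419) and Unc13a by -0.32 ± 0.11 (FDR 0.732). Without ethanol mouse 4, Unc13c was called (edgeR FDR 0.0797), along with 1.87% of all genes.

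**Figure D5:**
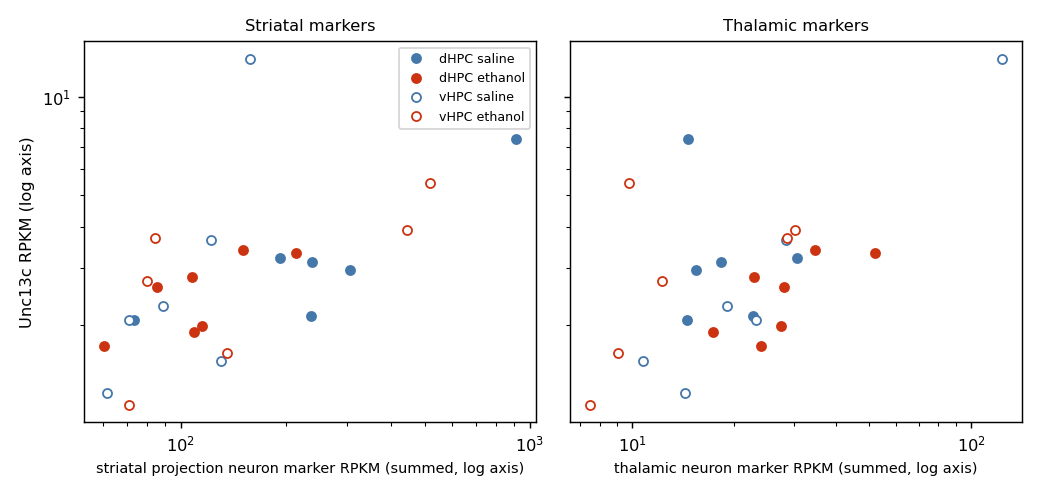
RPKM of Unc13c against the summed RPKM of striatal projection neuron markers (left) and thalamic neuron markers (right) in the 25 dHPC (filled) and vHPC (open) libraries of saline (blue) and ethanol (red) mice, all axes log. The highest Unc13c value, 13.1 RPKM, is in the library with 123 RPKM of thalamic markers and the next, 7.41 RPKM, in the library with 912 RPKM of striatal markers.

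Across these 25 hippocampal libraries the log2 RPKM of Unc13c followed the striatal marker level with r = 0.615 (rho 0.643) and the thalamic marker level with r = 0.581 (rho 0.538). Without the 2 farthest libraries r was 0.453 and 0.198. Mice gave both regions in part, and the kits differed between them, so these values are descriptions.

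Whether the response to ethanol differed between 1 and 10 injections was tested as the interaction of paradigm and treatment in each region. edgeR called 0% of genes in every one of the 5 regions, and so 0 of 9 members. The largest single value was that of Unc13c in vHPC, the region with most members at a low p, with 4 members at an unadjusted p below 0.05, against 11.5% of all genes, and 2 called by DESeq2 (Unc13a and Unc13c), against 2.02% of all genes. The chronic minus acute difference in log2 fold change was 2.78 ± 0.80 (SE) for Unc13c, -0.67 ± 0.17 for Unc13a, -0.48 ± 0.19 for Unc13b and -0.46 ± 0.17 for Cplx2 (edgeR FDR 0.289 to 0.379). Without acute saline mouse 2, the library rich in thalamic markers, the value of Unc13c was 1.69 ± 0.58 (edgeR FDR 0.531). Without acute ethanol mouse 4 it was 3.47 ± 0.79 (FDR 0.136), and without chronic ethanol mouse 5 it was 2.48 ± 0.83 (FDR 0.46). Without these 3 libraries in the same order, the value of Unc13a was -0.59, -0.78 and -0.63, that of Unc13b -0.40, -0.55 and -0.37 and that of Cplx2 -0.34, -0.52 and -0.44, none of them called. In dHPC the interaction of Unc13c was -0.80 ± 0.53 (edgeR FDR 0.969), and 0.09 ± 0.26 without chronic saline mouse 5. For the 3 genes that fell in the DS after acute ethanol, the DS interaction was -0.18 ± 0.25 (Unc13b), 0.20 ± 0.14 (Rims1) and 0.18 ± 0.15 (Snap25), and that of Unc13c was 0.37 ± 0.24 (edgeR FDR 0.973 to 0.978). In CTX 1 member, Unc13b, had an unadjusted p below 0.05 (-0.32 ± 0.13, edgeR FDR 0.60), and none had in dHPC, DS or VS. The share of all genes at such a p was 8.19% in CTX, 4.48% in dHPC, 4.16% in DS and 4.62% in VS. In these 4 regions, in this order, 0 members were called with DESeq2, and 0.0791%, 0.00745%, 0.019% and 0.0191% of all genes. Without acute saline mouse 6, Unc13a, Unc13c and Cplx2 were called in vHPC (edgeR FDR 0.0912 each), along with 2.12% of all genes.

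At the level of annotated isoforms the counts share reads, since a read in an exon common to several isoforms was counted for each. Per length, the most abundant isoforms in saline mice were Unc13a-203, Unc13b-208 and Unc13c-201 in each of the 5 regions. The summed isoform counts were 4.85 times the gene counts for Unc13b, 4.14 times for Rims1 and 1.8 times for Snap25. In the DS after acute ethanol 3.59% of all isoforms tested were called, and of 57 member isoforms 16 were lower and 2 higher. DESeq2 called 17 of them, against 3.64% of all isoforms, and 27 had an unadjusted p below 0.05, against 13.5% of all isoforms. The 18 called by edgeR were all 7 isoforms of Rims1, all 3 of Snap25, 6 of 16 of Unc13b and, rising, both of Unc13c. Rims1-202 fell by -0.62 ± 0.09 on the log2 scale (SE, n = 3 each, edgeR FDR 7.42e-04) and Snap25-203, annotated as a retained intron, by -0.37 ± 0.08 (edgeR FDR 0.0193). Unc13b-201 fell by -0.62 ± 0.13 (edgeR FDR 0.0127), and Unc13c-201 rose by 0.51 ± 0.13 (edgeR FDR 0.0394). The count was between 9 and 15 when each of the 6 libraries was left out, with 2076 to 4203 isoforms called in all, against 3908 with all 6.

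In the other comparisons edgeR called 0 of 57 member isoforms. The share of all isoforms called there was 1.24% in CTX, 0.0015% in dHPC, 0% in vHPC and 0.233% in VS after acute ethanol. After chronic ethanol it was 0.0402% in vHPC, 0.00827% in VS and 0% in each of the other 3 regions. At an unadjusted p below 0.05 there were 26 member isoforms in VS acute, 16 in DS chronic, 16 in VS chronic, 15 in vHPC chronic, 12 in vHPC acute, 3 in CTX acute, 3 in CTX chronic and 0 in dHPC. The share of all isoforms at such a p was 6.98% in VS acute, 7.32% in DS chronic, 9.01% in VS chronic, 8.81% in vHPC chronic, 11% in vHPC acute, 11.2% in CTX acute, 9.8% in CTX chronic and 7.69% and 7.23% in dHPC acute and chronic. Since isoforms of one gene share reads, these counts are not counts of independent features. DESeq2 called 8 in VS acute, 6 in vHPC chronic, 2 in vHPC acute, 2 in DS chronic and 0 in the others. Of all isoforms it called 0.708% in VS acute, 0.723% in vHPC chronic, 1.65% in vHPC acute, 0.467% in DS chronic, 1.02% in VS chronic, 2.24% and 0.301% in CTX acute and chronic, and 0.704% and 0.506% in dHPC acute and chronic. Without saline mouse 5 edgeR called 12 in VS chronic, without ethanol mouse 4 it called 8 in vHPC chronic, and without saline mouse 2 or ethanol mouse 2 it called 8 or 9 in VS acute. In the same fits 2.69%, 1.67%, 0.465% and 1.46% of all isoforms were called.

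The genes whose levels moved most like those of the Munc13 genes were sought over 61 libraries, after the mean of each region was subtracted, among 13166 genes. Iqsec2 was among those of Unc13a (Pearson's r = 0.86). For Unc13b they were Dlgap1 (0.822), Faah (0.79) and Rtn4r (0.782), and for Unc13c Elmo1 (0.845), Grm4 (0.77) and Six3 (0.769). Libraries of one mouse and of one dissection share their makeup, so these are descriptions. Among the members, Syt1 and Snap25 moved most alike (r = 0.87), followed by Rims1 and Snap25 (0.802), while Unc13a and Unc13c moved in opposite directions (-0.575).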

How the data were processed

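Poly(A) RNA of 62 libraries was sequenced. After trimming (Cutadapt 5.0) and alignment to GRCm39 (STAR 2.7.10a), the authors ran featureCounts 2.0.6 on Ensembl genes and isoforms, in reverse-stranded mode for all libraries, and let a read that hit several places or features count once in each. Raw counts were deposited for 56415 genes and 218795 isoforms, so reads common to isoforms or to close gene copies are shared. The kit used for CTX and dHPC does not mark strand, so this mode leaves reads of the other orientation uncounted there.

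Counts were tested with edgeR 4.0.16 (R 4.3.3): TMM scaling, quasi-likelihood F test, a low-count filter (5 or more counts in 2 or more libraries of any group), Benjamini-Hochberg adjustment over all genes tested, and FDR below 0.1 as the call. Saline and ethanol libraries of a region and paradigm entered each ethanol fit, all 4 groups of a region entered the interaction fit, and saline libraries of both regions entered each region fit. CPM was scaled by TMM within a region and RPKM by TMM over 61 libraries and exon length. One DS chronic saline library, which lacked whole chromosomes, was left out. DESeq2 1.42.0, other filters, all 4 groups in one fit, a block for the replicate number or the mouse, and leaving out single libraries were the alternatives. On simulated counts for DS acute over 20495 genes, 90% of genes changed by 1 on the log2 scale were called, and 54.5% of those changed by 0.5. Of the calls, 12.2% and 14.2% were genes that had not been changed, and with DESeq2 17.3% and 17%.

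Same-numbered saline and ethanol libraries were different mice. The regions of one mouse, matched by the number in the titles, were paired by animal. Deviations of the same mouse correlated at 0.0466 to 0.275 for dHPC and CTX and at -0.0598 to 0.0732 for DS and vHPC. They correlated at -0.078 to 0.166 for VS and vHPC and at -0.014 to 0.316 for VS and DS. Those of different mice correlated at -0.252 to 0.156, -0.122 to 0.122, -0.16 to 0.164 and -0.316 to 0.13, in the same order. The ranges of same and different mice overlapped. The genes, the 5 lists of release genes and the 11 marker lists were chosen with earlier results of these data known. All 9 genes were named. Of each list, up to 3 called genes with the smallest p in a comparison were named, and the most abundant gene of a marker list. Of the isoforms, called ones and the most abundant one per length were named. The genes most like a Munc13 gene were the 3 with the highest correlation among genes with a mean of at least 5 CPM. Some genes that these rules name are not reported here. Promoters were read from a RefSeq table, which held 7 of the 9 genes.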

Additional observations from a re-analysis of the deposited data

Results flagged for a closer look

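Among 18 groups of 4 libraries tested for a single far value, 1 stood out, where chance gives about 1 in 20. Cplx1 in the DS after chronic ethanol was at 383 CPM in mouse 1 and at 335, 335 and 341 CPM in the other mice, a gap of 0.865 of the range of the group.

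Cplx1 lay higher in every ethanol library than in every saline library of CTX after acute ethanol, and lower in every ethanol library of vHPC. The log2 fold changes differed by 0.557, and this difference was not tested. Groups did not overlap for 17.7% of all genes in CTX and for 17.9% in vHPC. Syt1 lay higher in every CTX ethanol library after acute exposure and lower in every DS and every VS ethanol library, with differences of 0.24 and 0.444, which were not tested either. The share of all genes whose groups did not overlap was 21.4% in DS and 12.3% in VS.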

How the results depend on the processing

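The 4 member calls of DS acute fell to 1 with all 4 DS groups in one fit. With each library left out in turn, 1 to 4 members were called. The count was 4 only without saline mouse 2, where Syt1 was called and Unc13c was not. Over all genes the 1056 calls there became 283 and 581 to 1088. DESeq2 gave 2 calls in vHPC acute, 2 in VS acute, 2 in vHPC chronic, 1 in DS chronic and 2 in the vHPC interaction, where edgeR gave 0. Of all genes DESeq2 called 2.9%, 0.889%, 1.08%, 0.776% and 2.02% there, in this order. The shares called by edgeR were 0%, 0.0399%, 0.0555%, 0% and 0%. Without a filter on low counts edgeR gave 1 in vHPC acute, 3 in VS acute, 2 in vHPC chronic, 2 in DS chronic, 2 in the vHPC interaction and 2 for VS against DS, where it called 263, 536, 790, 475, 868 and 2945 of all genes. All 4 groups in one fit gave 1 in DS chronic, with 117 of all genes. Leaving out each library gave 0 to 2 in VS acute, 0 to 1 in vHPC chronic, 0 to 1 in VS chronic, 0 to 3 in the vHPC interaction and 0 to 1 for VS against DS (Cplx1, without VS acute saline mouse 2), with up to 290, 360, 615, 434 and 2303 of all genes called. For isoforms, DESeq2 gave 2 in vHPC acute, 8 in VS acute, 6 in vHPC chronic and 2 in DS chronic. Of all isoforms it called 1.65%, 0.708%, 0.723% and 0.467% there. Leaving out each library gave 0 to 1 in CTX acute, 0 to 1 in vHPC acute and 9 to 15 in DS acute. It gave 0 to 9 in VS acute, 0 to 8 in vHPC chronic and 0 to 12 in VS chronic. Up to 3579, 1241, 4203, 1531, 1735 and 2887 of all isoforms were then called, in this order. Unc13c between dHPC and CTX turned from 0.23 to -0.43 in the ethanol libraries and to -0.19 without dHPC chronic saline mouse 5, and lay between -0.19 and 0.34 when each library was left out. The causes were not tested. No called ethanol or region fold change changed sign under any alternative run. Fits with a replicate block were possible in CTX acute, dHPC acute, CTX chronic and the 5 interactions, each with 0 members called as without it, and same-numbered libraries, which were different mice, correlated at 0.0835 and 0.12 in CTX acute, -0.383 and 0.0687 in CTX chronic and -0.0564 to 0.0276 in dHPC acute. The replicate block moved the count of all genes called from 515 to 789 in CTX acute, from 0 to 143 in CTX chronic and from 11 to 15 in dHPC acute. A block by mouse changed the region calls of members from 8 to 8, 9 to 9, 9 to 9 and 0 to 0. Over all genes it moved them from 15055 to 12434 for dHPC and CTX and from 8588 to 7371 for DS and vHPC. For VS and vHPC they went from 8194 to 7353, and for VS and DS from 2041 to 2061. Unc13b and Unc13c had the lowest counts of the members, with as few as 143 and 122 in a library.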
